A study of Homo sapiens with 3 samples.

Results

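The AlkB family of human cells consists of FTO and ALKBH1 to ALKBH8, and all 9 genes were found by symbol among the 21572 rows of the expression table. The table came from Hep-G2, an established human line derived from a hepatoma, in which FTO had been knocked down with short hairpin RNAs (shRNAs). The control library came from cells with the shRNA labelled SHC002, a scramble in the words of the series design. The other libraries came from cells with 2 different shRNAs against FTO, sh#2 (TRCN0000255402 in the labels) and sh#7 (TRCN0000246247), of which the design calls sh#7 the more efficient. Every culture was at passage 21 in the same serum-containing medium and gave 1 library, so the spread between cultures is unknown. The labels do not say whether a line was a clone or a pool, and an effect of FTO cannot be told apart from that of a line.

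Enzymes of the AlkB family use iron, oxygen and 2-oxoglutarate to oxidise a carbon, most often a methyl group that then leaves as formaldehyde. Some members act on RNA, some repair alkylated DNA, and others act on protein or have roles in mitochondria. FTO and ALKBH5 are the family's demethylases of N6-methyladenosine (m6A) in RNA, and FTO also removes the methyl group of m6Am next to the cap. The family is part of the larger group of 2-oxoglutarate dioxygenases, which also holds the TET and JmjC enzymes and the prolyl and lysyl hydroxylases.

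Promoter sequences are shown for FTO, the gene targeted; ALKBH5, the other m6A demethylase; and P4HA1, a dioxygenase gene outside the family that was called lower in sh#7. Each runs 5′ to 3′ on the gene's own strand from 250 bases before to 50 bases after the annotated start, as given by RefSeq on GRCh38.p14, a newer build than the hg19 of the table. Capitals mark the core of the hypoxia response element, ACGTG or GCGTG, on either strand. FTO lies at chr16:53703906-53704205 on the plus strand, ALKBH5 at chr17:18183578-18183877 on the plus strand and P4HA1 at chr10:73096817-73097116 on the minus strand.
FTO: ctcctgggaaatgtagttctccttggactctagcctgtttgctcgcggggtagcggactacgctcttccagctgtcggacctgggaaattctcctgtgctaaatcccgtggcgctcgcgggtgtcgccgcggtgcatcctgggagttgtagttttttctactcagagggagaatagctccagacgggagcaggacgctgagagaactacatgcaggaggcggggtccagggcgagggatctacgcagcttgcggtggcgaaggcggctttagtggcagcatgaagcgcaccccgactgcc
ALKBH5: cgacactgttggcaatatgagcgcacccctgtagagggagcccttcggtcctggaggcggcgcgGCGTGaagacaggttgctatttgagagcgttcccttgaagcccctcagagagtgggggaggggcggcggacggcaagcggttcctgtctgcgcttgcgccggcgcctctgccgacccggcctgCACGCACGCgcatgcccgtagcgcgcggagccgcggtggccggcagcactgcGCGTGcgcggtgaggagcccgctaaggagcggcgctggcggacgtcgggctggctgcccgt
P4HA1: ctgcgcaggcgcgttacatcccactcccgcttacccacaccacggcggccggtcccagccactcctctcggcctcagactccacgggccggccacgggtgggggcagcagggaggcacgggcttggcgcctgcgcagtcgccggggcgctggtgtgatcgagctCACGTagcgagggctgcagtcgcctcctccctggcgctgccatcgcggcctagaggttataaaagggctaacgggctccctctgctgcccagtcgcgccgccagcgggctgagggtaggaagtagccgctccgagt

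The FTO window held 0 matches to the core, that of ALKBH5 held 4, of which a pair overlap, and that of P4HA1 held 1. Of the other dioxygenase genes called lower in sh#7, the PLOD2 window held 3 and that of EGLN3 held 0. Over the family, 6 of 9 windows held a match, against 55.9% of 15843 protein-coding promoters, so the family's share was near that of promoters in general. The E-box CACGTG, which contains the core, was in 0 of 9 members and in 8.88% of protein-coding promoters. CpG dinucleotides numbered 11 in the ALKBH8 window, 22 in that of FTO, 39 in that of ALKBH5 and 46 in that of ALKBH4, beside a median of 22 over protein-coding promoters.

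Levels are FPKM (fragments relative to transcript length in kilobases and to the total mapped), which divide by length and can be set side by side between genes. Where 3 levels of a gene follow each other they are those of the control, sh#2 and sh#7, in this order. Depth was estimated at 42.3 M (mega) to 44.2 M fragments per library. Differences are of log2(FPKM + 1), which understates the change of low genes, and cover the 11069 genes averaging 1 FPKM or more, all 9 members included. A gene was called where its difference reached 2-fold on that scale, which is a rule of size and no test. The median compared gene was 0.16 above the control in sh#7 and 0.10 above it in sh#2, and 0.047 higher in sh#7 than in sh#2. Intervals are exact at 95%, rest on estimated numbers of fragments and hold counting error alone.

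The libraries carried the markers of hepatocytes, with lower summed levels in the knockdown lines. All 15 hepatocyte markers reached 1 FPKM in the control and sh#2 and 14 did in sh#7, and they summed to 27006, 20207 and 11836 FPKM. Past 2-fold in sh#7, and lower, were 7 of 15, where 4.83% of all compared genes were past it: ALB, APOA1, APOA2, TTR, AHSG, AFP and FGB. In sh#2 these were 3 of 15, where 1.23% were: TTR, AHSG and AFP. Not every marker was lower in sh#2, where ALB was at 0.0086 and FGB at 0.27 above the control on the log2 scale. Of 6 endothelial markers 0 reached 1 FPKM. The 8 fibroblast and stellate markers summed to 35.4 to 52.7 FPKM, mostly ACTA2, while COL1A2, COL3A1, LUM, DCN and THY1 were listed at 0 and PDGFRB was called lower in sh#7. The 7 blood and immune markers summed to 3258, 1354 and 322 FPKM, mostly the lysozyme gene LYZ, which was called lower in both lines, while PTPRC, CD3E and HBB were listed at 0. Fewer cells of a type and less RNA per cell cannot be told apart in such data, and the part of these shifts in the results below was not tested.

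FTO was at 9.02, 5.29 and 2.55 FPKM, from about 714, 432 and 200 estimated fragments. The libraries stood in the order that the design gives for the knockdown, and no 2 of the 3 counting intervals overlapped. In sh#7 the level was 28.2% of the control (24.1 to 33.1), and in sh#2 it was 58.6% (51.8 to 66.0). Set against sh#2, the level in sh#7 was 48.2% (40.7 to 57.3). On the log2 scale FTO differed by -1.50 between sh#7 and the control, by -0.67 between sh#2 and the control and by -0.82 between sh#7 and sh#2. Counted from the most lowered gene, FTO lay at percentile 1.01 of all compared genes in sh#7 and 1.94 in sh#2.

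FTO was the one family member called. In sh#7 against the control 1 of 9 members passed 2-fold, where 4.83% of all compared genes did. In sh#2 against the control 0 of 9 passed it, where 1.23% of all genes did, and between sh#7 and sh#2 0 of 9 did, where 2.97% of all genes did. With a pseudocount of 0.1 in place of 1, FTO was past 2-fold between the lines too. At 1.5-fold 1 of 9 members, again FTO, was called in each comparison, where 15.8% of all genes were in sh#7, 5.38% in sh#2 and 9.69% between the lines. FTO is the targeted gene, so its position is a check of the labels. On the log2(FPKM + 1) scale the other 8 members lay within 1.5-fold in each comparison. ALKBH8 was past 1.5-fold in sh#7 by the plain ratio of FPKM, at 1.60, and with a pseudocount of 0.1, at 0.67 on the log2 scale.

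**Figure D1:**
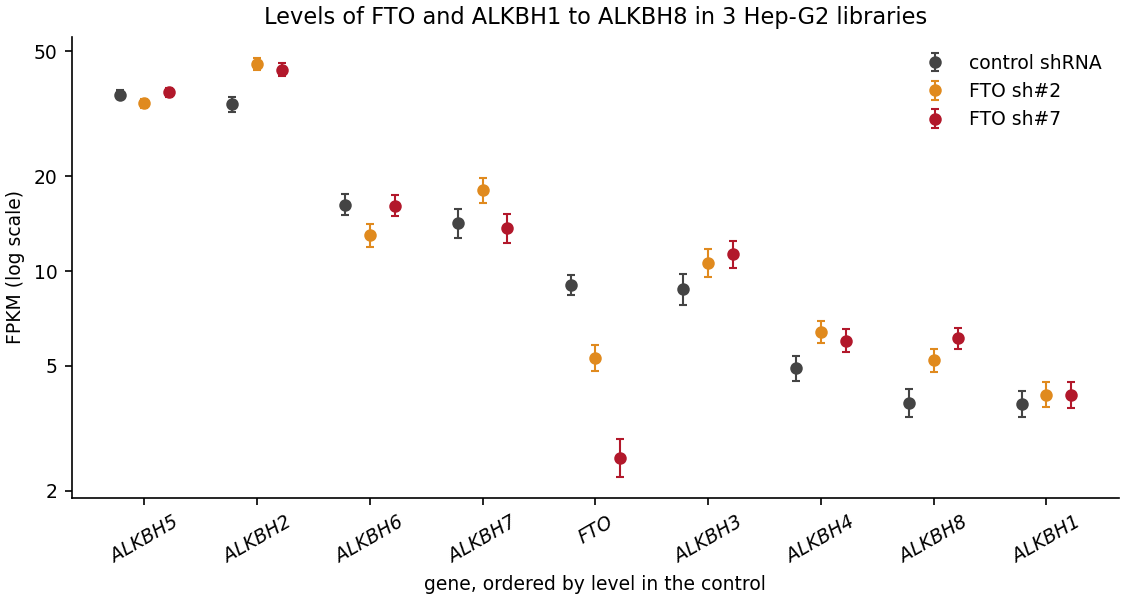
FPKM (log axis) of the 9 family members, ordered by their level in the control, with 1 point per library and bars for exact 95% intervals of counting error. FTO is at 9.02 (control), 5.29 (sh#2) and 2.55 FPKM (sh#7), while ALKBH5 lies between 34.1 and 37.1 FPKM.

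ALKBH5, the second demethylase of m6A, showed levels of 36.4, 34.1 and 37.1 FPKM. In sh#7 this was 102% of the control (97.0 to 107), an interval that includes equality, and 93.8% in sh#2 (89.4 to 98.4), one that does not. The sh#7 difference was 0.024 on the log2 scale, but -0.15 with median-of-ratios scaling and -0.054 with upper-quartile scaling, so its sign depends on the scaling. Per length, ALKBH5 was at 4.04 times the level of FTO in the control, a ratio of 6.46 for sh#2 and 14.5 for sh#7. FTO made up 19.9% of the summed FPKM of the m6A demethylase genes in the control, a share of 13.4% for sh#2 and 6.44% for sh#7.

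ALKBH2 and ALKBH3 repair alkylated bases, ALKBH2 in double-stranded DNA and ALKBH3 in single-stranded DNA and RNA. ALKBH2 was at 33.9, 45.6 and 43.7 FPKM, which is 1.34 times the control in sh#2 (1.25 to 1.44) and 1.29 times in sh#7 (1.20 to 1.39). The lines themselves were at a ratio of 0.960 (0.897 to 1.03), which includes equality. ALKBH3 was at 8.76, 10.6 and 11.3 FPKM, or 1.21 times the control in sh#2 (1.04 to 1.42) and 1.29 times in sh#7 (1.11 to 1.51). Both repair genes lay above the control in both lines, as did 67.2% of all compared genes in each line. ALKBH2 lay at percentile 73.4 of all compared genes in sh#7 and 91.7 in sh#2, and ALKBH3 at 71.1 and 74.9. With median-of-ratios scaling both genes still lay above the control, by 0.18 for ALKBH2 and 0.17 for ALKBH3 in sh#7. The intervals given are for levels as deposited, and none was computed for scaled levels.

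ALKBH8 and ALKBH1 act on transfer RNA. ALKBH8, which has a methyltransferase domain and works with TRMT112 on the wobble uridine of the anticodon, was at 3.81, 5.21 and 6.11 FPKM, the reverse of the order of FTO. It was the member furthest above the control in sh#7, at a ratio of 1.60 (1.41 to 1.82), and was at a ratio of 1.37 in sh#2 (1.20 to 1.56). The sh#7 library also exceeded sh#2 by its counting interval, at a ratio of 1.17 (1.04 to 1.32). Many genes were further up: ALKBH8 lay at percentile 89.4 of all compared genes in sh#7 and 88.5 in sh#2. Its sh#7 difference of 0.56 was 0.42 with median-of-ratios scaling. ALKBH1, a demethylase of transfer RNA that also acts in mitochondria, was at 3.79, 4.05 and 4.05 FPKM. Its intervals ran from 0.936 to 1.22 times the control in sh#2 and from 0.934 to 1.23 times in sh#7, so both include equality.

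ALKBH4, described as a demethylase of a methylated lysine in actin, was at 4.91, 6.40 and 6.01 FPKM, or 1.30 times the control in sh#2 (1.15 to 1.48) and 1.22 times in sh#7 (1.08 to 1.39). ALKBH6 was at 16.3, 13.0 and 16.1 FPKM, with sh#2 at 80.0% of the control (71.3 to 89.6) and sh#7 at 99.2% (88.9 to 111). ALKBH7, a mitochondrial member tied to programmed necrosis, was at 14.2, 18.0 and 13.7 FPKM, with sh#2 at 127% of the control (111 to 146) and sh#7 at 96.8% (83.4 to 112). For both of these genes the library apart from the others was sh#2, in opposite directions. Between the lines, sh#7 was at 1.24 times sh#2 for ALKBH6 (1.11 to 1.39) and at 0.761 times for ALKBH7 (0.660 to 0.874). ALKBH3, ALKBH4 and ALKBH7 overlap a neighbouring gene in RefSeq, and whether the counting used strand is not stated, so reads of overlapping genes on opposite strands cannot be told apart.

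**Figure D2:**
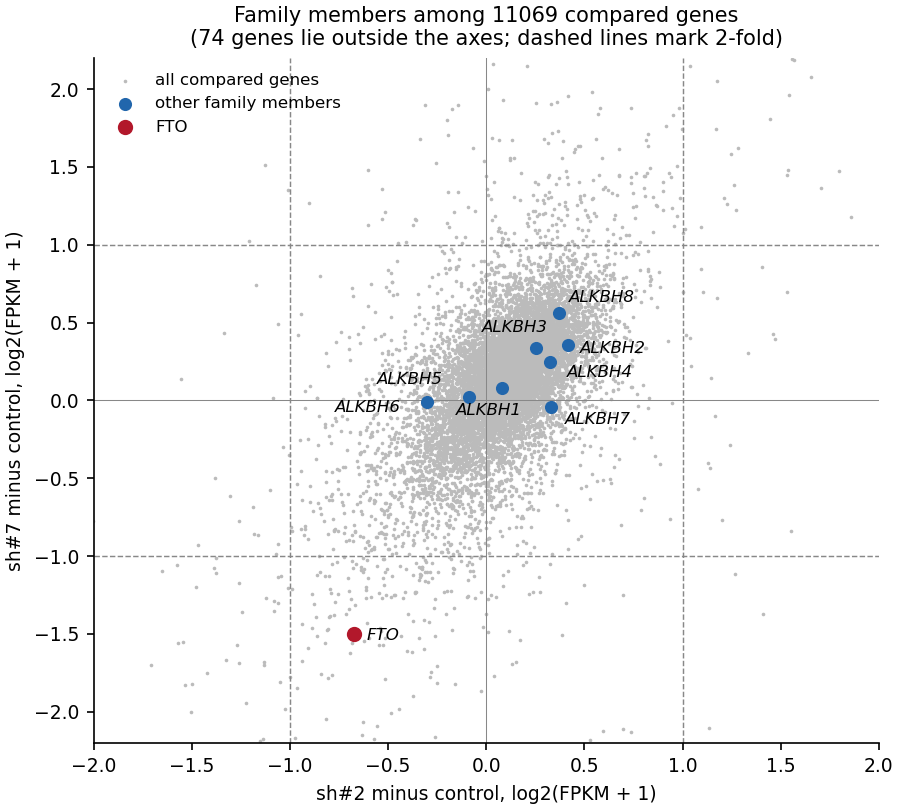
Difference from the control in sh#2 (x axis) and in sh#7 (y axis), each in log2(FPKM + 1), for all 11069 compared genes in grey (74 of them lie outside the axes), the 8 other family members in blue and FTO in red. Both axes use the same control library; FTO lies at -0.67 and -1.50, and the other members lie inside the lines that mark 2-fold.

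Over the 8 members other than FTO the median difference was 0.16 in sh#7 and 0.29 in sh#2, beside 0.16 and 0.10 over all compared genes. Of these 8 members, 4 were above the median of all genes in sh#7 and 5 in sh#2. Counting intervals lay wholly above the control for ALKBH2, ALKBH3, ALKBH4 and ALKBH8 in sh#7. In sh#2 they did so for these and ALKBH7, while those of ALKBH5 and ALKBH6 lay below it. Over all compared genes 67.2% lay above the control in each line, and how many had such intervals was not counted. Median-of-ratios scaling brought the all-gene median to 0.00 in both lines. Under it ALKBH1 changed sign in both lines and ALKBH5 in sh#7. The values of ALKBH2, ALKBH3, ALKBH4 and ALKBH8 stayed above the control, without intervals for the scaled levels.

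The order of the members by level was led by ALKBH5 and ALKBH2 in each library. In the control it ran ALKBH5, ALKBH2, ALKBH6, ALKBH7, FTO, ALKBH3, ALKBH4, ALKBH8 and ALKBH1. Neighbours whose counting intervals overlapped there were ALKBH5 and ALKBH2, ALKBH6 and ALKBH7, FTO and ALKBH3, and ALKBH8 and ALKBH1. FTO was the fifth of the family in the control and the seventh in sh#2, where its interval overlapped that of ALKBH8. It was the last in sh#7, where its upper bound of 2.93 FPKM lay under the lower bound of 3.68 FPKM of ALKBH1. The family summed to 131, 142 and 141 FPKM, and without FTO to 122, 137 and 138 FPKM. In the control FTO was 6.88% of the family's sum, with 3.71% for sh#2 and 1.81% for sh#7, and ALKBH2 with ALKBH5 made up 53.7%, 56.0% and 57.4%.

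Several members share a start region with another gene. An oppositely directed protein-coding gene begins within 1000 bases of the start for 3 of 9 members, against 10.3% of 15843 protein-coding genes in RefSeq on GRCh38.p14. The start of FTO lies 297 bases from that of RPGRIP1L, a gene of the ciliary transition zone. RPGRIP1L was at 2.66, 2.60 and 3.13 FPKM, a difference of -0.023 in sh#2 and 0.18 in sh#7, so it did not share the position of FTO. ALKBH1 begins 80 bases from SLIRP, which encodes a mitochondrial RNA-binding protein and was at 131, 165 and 149 FPKM. ALKBH4 begins 121 bases from LRWD1, which encodes a partner of the origin recognition complex and was at 8.50, 10.6 and 9.60 FPKM.

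Among the 8 genes nearest to FTO in pattern were S100A1, HK2, ISG20, PKDCC, GPR126, ARHGEF40 and P4HA1. Likeness was the distance between pairs of log2 differences (sh#2 and sh#7, each from the same control), over 8163 other genes averaging 5 FPKM or more. S100A1, a calcium-binding protein gene, was nearest at a distance of 0.010, with 428, 269 and 152 FPKM. HK2, which encodes a hexokinase of glycolysis, followed at 0.060, with 55.8, 34.4 and 18.3 FPKM. ISG20, an exonuclease gene induced by interferon, was at 11.6, 7.19 and 3.32 FPKM. PKDCC, which encodes a secreted kinase, was at 17.8, 11.4 and 5.55 FPKM. P4HA1, the catalytic subunit of collagen prolyl 4-hydroxylase and itself a 2-oxoglutarate dioxygenase, was at 95.3, 53.9 and 33.6 FPKM.

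The match rests on 3 libraries, and 24 genes lay within 0.25 of FTO. The ranks depend on the pseudocount: at 0.1 S100A1 was not among the nearest 8, and SEPP1 was nearest at 0.048. P4HA1, the last of the 8, was not among them at that pseudocount or with median-of-ratios scaling. Of the 8 nearest genes, 6 were again among the nearest 8 with median-of-ratios scaling and 4 with a pseudocount of 0.1.

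**Figure D3:**
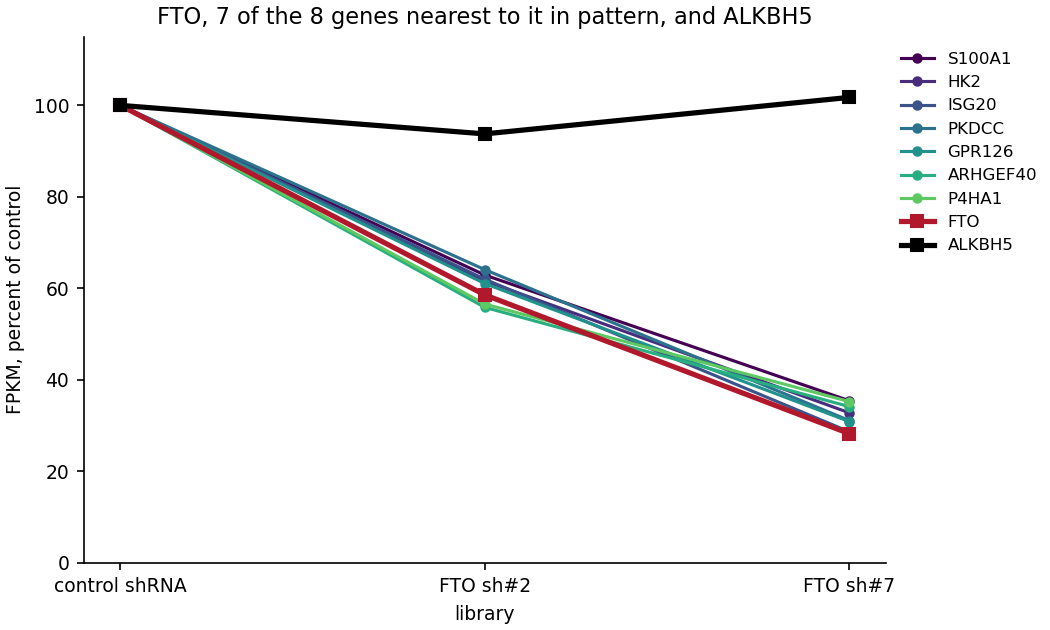
FPKM as a percent of the control (y axis) in the 3 libraries (x axis) for FTO in red, 7 of the 8 genes nearest to it in pattern and ALKBH5 in black, with 1 line per gene. FTO stands at 58.6% in sh#2 and 28.2% in sh#7, while ALKBH5 is at 93.8% in sh#2 and 102% in sh#7. The 7 genes lie near FTO because they were picked for that.

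Among other 2-oxoglutarate dioxygenases, most prolyl, lysyl and small-molecule dioxygenase genes lay below the median gene, 15 of 18 compared in each line. Past 2-fold were 3 in sh#7 (EGLN3, P4HA1 and PLOD2), where 4.83% of all genes were, and 1 in sh#2 (EGLN3), where 1.23% were, all lower. Over genes averaging 5 FPKM or more these counts were 2 and 0, since EGLN3 is then not compared. EGLN3, an oxygen sensor that hydroxylates HIF subunits and is itself induced by hypoxia, was at 5.66, 2.07 and 1.77 FPKM. PLOD2, a lysyl hydroxylase of collagen, was at 132, 89.4 and 62.5 FPKM. The list's median was 0.49 below that of all genes in sh#7 and 0.41 below it in sh#2, or 0.16 and 0.18 below it with no filter on low values. For the AlkB family with FTO the same figure was 0.080 below in sh#7 and 0.15 above in sh#2.

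Of 32 compared TET and JmjC genes, 1 passed 2-fold in sh#7, where 4.83% of all genes did. In sh#2 0 did, where 1.23% of all genes did. With a pseudocount of 0.1 the count in sh#7 was 4, where 758 of the 11069 compared genes were called. The added genes were TET3 at 2.52, 3.55 and 5.30 FPKM, KDM4A at 5.92, 8.46 and 11.99 FPKM, and TET1 at 3.74, 3.15 and 1.79 FPKM. TET1 was lower in sh#7 and the other genes higher. The gene past 2-fold in both settings was HR, at 0.72, 0.34 and 2.86 FPKM, too low to be compared where 5 FPKM was the minimum mean. The list's median stood 0.025 below that of all genes in sh#7 and 0.032 below it in sh#2.

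Genes that place or read methyl marks on RNA stayed within 2-fold in every comparison, which holds for the 12 m6A and m6Am writers, the 10 m6A readers and the 8 compared m1A and m3C writers. In sh#7, in sh#2 and between the lines 4.83%, 1.23% and 2.97% of all genes were called. At this background share few or none would be called in lists of this size. On the log2(FPKM + 1) scale 1 m6A writer (METTL16) and 1 reader (YTHDF1) were past 1.5-fold higher in sh#7. So were 2 m1A and m3C writers (TRMT61A and METTL8). In sh#2 0 genes of these lists were past it. Of all genes 15.8% in sh#7 and 5.38% in sh#2 passed it in either direction. METTL3, which catalyses m6A formation, was at 40.2, 41.6 and 32.1 FPKM, and METTL14, its partner, was at 10.1, 13.5 and 15.1 FPKM. METTL16, which methylates U6 RNA, was at 6.31, 7.96 and 11.2 FPKM, and PCIF1, the writer of m6Am, was at 18.5, 21.2 and 27.9 FPKM. Those 4 writers were not in 1 order, with METTL3 lowest in sh#7 and the other 3 highest there. METTL14, METTL16 and PCIF1 had the largest mean absolute differences of the 12 writers. Of all 12, 2 lay below the all-gene median in sh#7 and 4 in sh#2. Among the readers, the 3 with the largest mean absolute differences are given. YTHDF1 was at 34.1, 38.8 and 52.4 FPKM, IGF2BP1 at 25.7, 34.6 and 37.2 FPKM, and YTHDF3 at 12.6, 15.6 and 18.0 FPKM. Of all 10 readers, 2 lay below the all-gene median in sh#7 and 4 in sh#2. TRMT61A, the catalytic subunit of a transfer RNA m1A writer, was at 4.42, 6.38 and 7.69 FPKM, and its partner TRMT6 at 29.8, 37.7 and 38.7 FPKM. METTL8, an m3C writer, was at 3.57, 4.76 and 5.96 FPKM. TRMT61A, TRMT6 and METTL8 were picked in the same way. Of the 8 compared m1A and m3C writers, 4 lay below the all-gene median in sh#7 and 3 in sh#2. Medians above that of all genes were 0.079 for m6A writers, 0.15 for readers and 0.030 for m1A and m3C writers in sh#7, and 0.083, 0.099 and 0.13 in sh#2.

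Genes that work with single members were also within 2-fold. Of 14 genes of wobble uridine and NSUN3 modification, 0 passed 1.5-fold on the log2(FPKM + 1) scale, where 15.8% of all genes did in sh#7 and 5.38% in sh#2. By the plain ratio of FPKM CTU2 did in sh#2, at 1.53. TRMT112, the partner of ALKBH8, was at 554, 606 and 581 FPKM. IKBKAP, the scaffold of the Elongator complex, was at 37.4, 51.4 and 52.9 FPKM, KTI12 at 5.07, 7.27 and 7.34 FPKM, and CTU2, which thiolates the wobble uridine, at 7.71, 11.8 and 10.9 FPKM. NSUN3, the methyltransferase upstream of ALKBH1 in mitochondrial transfer RNA, was at 3.44, 3.83 and 4.29 FPKM. IKBKAP, KTI12 and CTU2 had the largest mean absolute differences of the 14 genes. Of all 14, 4 lay below the all-gene median in sh#7 and 3 in sh#2.

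Of 16 alkylation repair genes 0 passed 2-fold, a count near the background share. ASCC3, the helicase that works with ALKBH3, was at 10.3, 13.1 and 11.6 FPKM. OTUD4, a scaffold of the deubiquitinases that stabilise ALKBH2 and ALKBH3, was at 5.78, 6.35 and 5.19 FPKM, and USP7, one of those deubiquitinases, at 78.1, 95.6 and 103 FPKM. The sliding clamp gene PCNA was at 198, 302 and 317 FPKM and the repair polymerase gene POLB at 12.2, 20.4 and 16.5 FPKM. Both were past 1.5-fold in sh#2, where 5.38% of all genes were, and PCNA also in sh#7, where 15.8% were. PCNA, POLB and USP7 had the largest mean absolute differences of the 16 genes. Of all 16, 7 lay below the all-gene median in sh#7 and 8 in sh#2.

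Selenoprotein genes, whose translation uses a wobble modification that ALKBH8 completes, lay on both sides of the control. Of 19 compared, 3 passed 2-fold in sh#7 (4.83% of all genes did) and 1 in sh#2 (1.23%), all lower, while 4 were past 1.5-fold higher in sh#7, where 15.8% of all genes passed it in either direction. The list's median was 0.16 in sh#7, beside 0.16 over all genes. GPX3, a secreted glutathione peroxidase, was at 392, 195 and 114 FPKM, and SEPP1, the selenium carrier made by hepatocytes, at 870, 497 and 252 FPKM. Both moved with the summed hepatocyte markers given above, and the part of that shift was not tested. C11orf31, now named SELENOH, was at 20.7, 31.7 and 3.97 FPKM.

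Of 23 genes that make or use 2-oxoglutarate, 1 passed 2-fold in sh#7 and 0 did in sh#2, near the 4.83% and 1.23% of all genes. That gene was GOT1, the cytosolic aspartate aminotransferase, at 78.1, 69.2 and 27.5 FPKM. The list's median stood 0.16 below that of all genes in sh#7 and 0.033 below it in sh#2.

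A list of 16 genes named as FTO-sensitive in studies of other cells had 11 compared members, of which 3 were past 2-fold in sh#7, in both directions, where 4.83% of all genes were, and 0 in sh#2, where 1.23% were. CEBPA, a hepatocyte and myeloid transcription factor, was at 35.5, 71.9 and 121 FPKM, and its sh#2 difference of 0.998 lay just under the threshold. CCND1, a cyclin of the G1 phase, was at 91.7, 128 and 287 FPKM, and BNIP3, a mitophagy receptor, at 273, 139 and 75.2 FPKM. MYC, in the same list, was at 78.2, 73.7 and 83.0 FPKM and was not called.

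**Figure D4:**
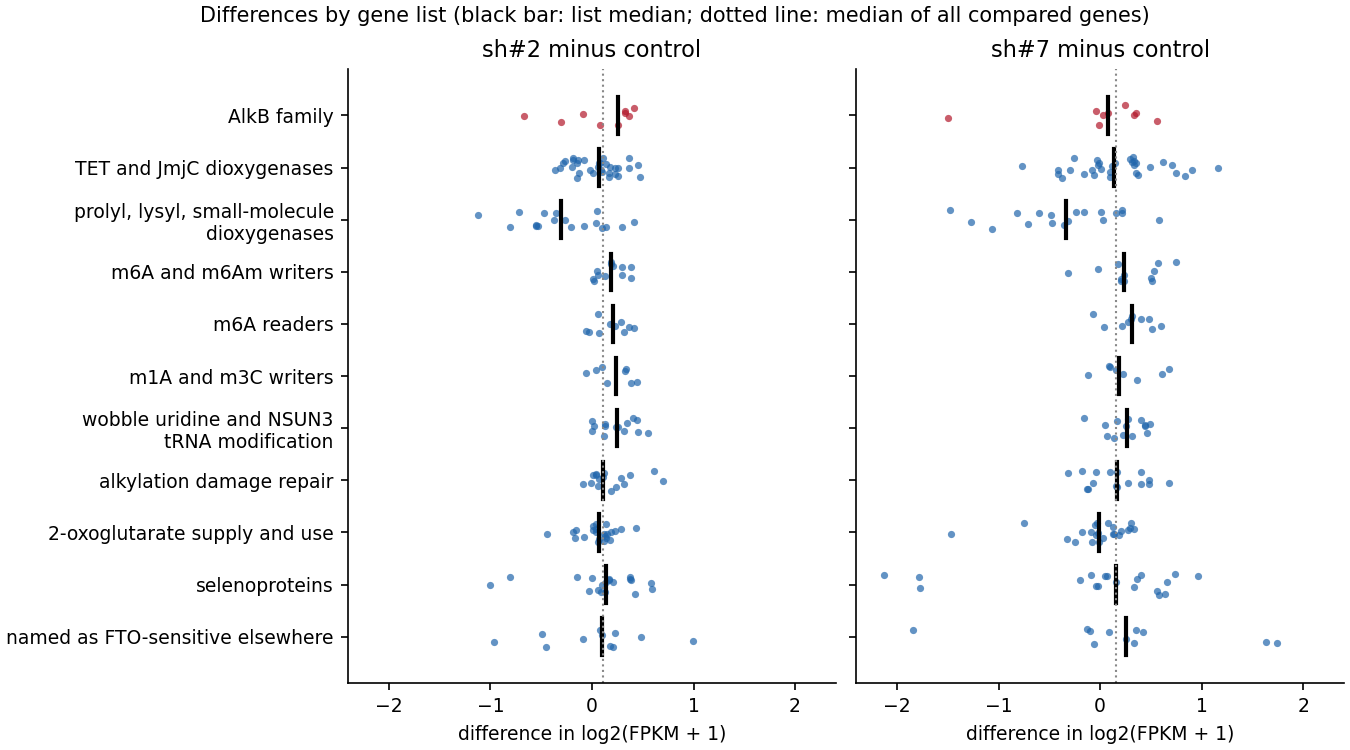
Difference from the control in log2(FPKM + 1) in sh#2 (left) and sh#7 (right), with 1 point per compared gene, the AlkB family in red, other lists in blue, a black bar at each list median and a dotted line at the median of all compared genes. The median of the prolyl, lysyl and small-molecule dioxygenases lies 0.41 below the dotted line in sh#2 and 0.49 below it in sh#7, and FTO is the one family member far to the left.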

How the data were processed

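RNA was sequenced in 3 Hep-G2 libraries, 1 per group. The authors deposited 1 table of FPKM values with a row per gene symbol. The submitters' processing notes name STAR 2.4.0j, Cufflinks 2.2.1, HTSeq and hg19, without saying what each tool did. FPKM depends on the total, so abundant genes can shift the rest: the 100 highest genes held 34.7% of the control's FPKM, 31.3% of that of sh#2 and 29.0% of that of sh#7. Dates had replaced 26 symbols, which were not named.

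From the table, log2(FPKM + 1) was compared between libraries (Python 3.11.15, pandas 2.3.3, SciPy 1.17.1). No test was run, since FPKM is not a count and no group has a replicate. Depth came from the level of 1 fragment in genes with a single GENCODE 29 transcript over 800 nt. Fragments behind a value used the median protein-coding transcript length in GENCODE 29 (1.85 kb for FTO), which may differ from the authors' models, so intervals are approximate. The calculations were tested on simulated data.

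The members and the 14 other gene lists were chosen with earlier results of these data known. Of 221 list entries, 3 matched no row by current or older symbol (TRMT10C, SEP15 and VIMP) and were not analysed here. Genes were named by a rule: all members; the 8 genes nearest to FTO, of which 1 is not reported here; in each list the genes past 2-fold in either line, or otherwise the 3 with the largest mean absolute difference; and METTL3, METTL14, TRMT112, ASCC3, NSUN3 and OTUD4. RPGRIP1L, SLIRP, LRWD1, MYC, ACTA2, TET1, TET3, KDM4A and the markers listed at 0 were chosen after their values were seen. Alternatives were another pseudocount, 2 scalings, 2 filters on low values and a 1.5-fold threshold.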

Additional observations from a re-analysis of the deposited data

Results flagged for a closer look

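In 6 of the genes named in the text the lines lay on opposite sides of the control, each by more than its counting interval. Only named genes were examined, and the share of all compared genes that did so was not counted. Intervals of abundant genes are narrow, so small differences can pass this rule. With 1 library per line the difference between the lines was not tested. C11orf31 (SELENOH), a selenoprotein gene, was 0.59 above the control in sh#2 on the log2 scale but at -2.12 in sh#7, with 31.7 and 3.97 FPKM against 20.7 FPKM. HR, a JmjC gene, was at -0.36 in sh#2 and at 1.16 in sh#7, with levels of 0.34 to 2.86 FPKM. The hepatocyte marker FGB was at 0.27 in sh#2 and -4.16 in sh#7, and ACTA2, from the fibroblast and stellate list, at -0.25 and 0.35. For ALB (0.0086 in sh#2 and -1.49 in sh#7) and MYC (-0.085 and 0.084) the values above 0 are smaller than the median over all compared genes, 0.10 in sh#2 and 0.16 in sh#7.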

How the results depend on the processing

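No paired analysis was possible because no group has a second library, and for the same reason none could be left out. FTO lay below the control in both lines under all alternatives run. With a pseudocount of 0.1, FTO in sh#7 was at -1.78 and 1 member passed 2-fold between the lines. That threshold was passed by 4 TET and JmjC genes in sh#7 and 1 FTO-sensitive gene in sh#2. Of all compared genes 758 were then called in sh#7 and 244 in sh#2, and 4 of the 8 nearest genes were shared. With median-of-ratios scaling ALKBH2 was at 0.18 in sh#7 and 0.30 in sh#2, ALKBH5 at -0.15 and -0.21, and ALKBH6 at -0.18 in sh#7, 2 selenoprotein genes passed 2-fold between the lines and 1 FTO-sensitive gene did in sh#2. With upper-quartile scaling ALKBH5 was at -0.054 in sh#7 and 1 FTO-sensitive gene passed 2-fold in sh#2. At 1.5-fold 1 member was called in sh#2 and 1 between the lines.

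Without a filter many genes at 0 enter the all-gene median. List medians relative to it were then -0.16 (sh#7) and -0.18 (sh#2) for prolyl, lysyl and small-molecule dioxygenases, 0.24 and 0.19 for m6A writers, 0.31 and 0.20 for m6A readers, 0.16 and 0.11 for alkylation repair, -0.0078 and 0.071 for 2-oxoglutarate genes, and 0.16 and 0.13 for selenoproteins. At a minimum mean of 5 FPKM fewer genes are compared and ALKBH1 is not. There 346, 73 and 202 genes were called in sh#7, in sh#2 and between the lines, the m6A writers lay at 0.22 in sh#7, 0 TET and JmjC genes passed 2-fold in sh#7 or between the lines, and 0 prolyl, lysyl and small-molecule dioxygenases did in sh#2. In all, 125 of 132 member differences and 137 of 150 list medians moved less than the tolerance set for each. So did 142 of 150 list counts and 15 of 18 member counts. The 2 filters on low values cannot change a member's own difference, so the member differences counted under them were fixed in advance. The member counts under these filters were fixed too, since ALKBH1, the member dropped, was not called. The tallies for members are therefore higher than those of the other settings alone. The cause of the shifts beyond tolerance was not tested. Depth limits FTO in sh#7, with 200 estimated fragments, and ALKBH3, with 297 in the control, more than the other members.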
